A study of Mus musculus with 12 samples.

Results

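The mitochondrial ribosomal protein genes were taken as the genes of the deposited ribosome profiling table whose symbol begins with Mrpl or Mrps followed by a number. There were 77 such genes of 10126 in the table, 48 named for the large subunit (Mrpl) and 29 for the small subunit (Mrps). All 77 are annotated as protein-coding, and they lie on 17 chromosomes, with at most 11 on a single chromosome. Their proteins build the ribosome inside mitochondria. It translates the few mRNAs of the mitochondrial genome, which encode core subunits of the respiratory chain and of ATP synthase, while every protein of the ribosome itself is encoded in the nucleus, translated in the cytosol and imported. Some of these proteins have counterparts in the bacterial ribosome and others are found only in mitochondria. T cells expand their mitochondria as they leave quiescence, so this gene group is of interest in activated cells. The cytosolic Rpl and Rps genes, 82 in all, served as a reference.

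CD4 T cells were isolated from the lymph nodes of female mice with a kit for naive CD4 T cells, which is meant to remove B cells and other cell types, and activated for 20 h on plates that had been coated with anti-CD3 at 5 ug/ml and anti-CD28 at 1 ug/ml, followed by 0.1 mg/ml cycloheximide for 1 min before lysis. Control mice were Rnmt fl/fl without Cre (CD4cre -) and Rnmt cKO mice were Rnmt fl/fl with CD4cre +, so both groups carry the floxed allele and only the cKO group carries Cre. RNMT methylates the guanosine cap of mRNA, and the CD4-Cre transgene deletes its gene from the double-positive stage of thymic development onward, so that these T cells matured after the deletion. Total cytoplasmic RNA and ribosome-protected fragments (RPF, the mRNA pieces covered by translating ribosomes) were sequenced from 3 control and 3 cKO samples each, 12 libraries in all. Reads counted on genes numbered 18915961 to 19111659 in control total RNA, 15079703 to 22629563 in cKO total RNA, 6786164 to 10661356 in control RPF and 4123271 to 10166729 in cKO RPF. The median count of a mitochondrial ribosomal protein gene in a library was 963.5 in total RNA and 635.5 in RPF. Levels are given as normalized CPM (CPM, the counts as a part of the library's size, with TMM scaling within a kind of library), and all differences are log2 fold changes of cKO over control, called at an adjusted p under 0.05 over all genes tested. The labels name replicates but do not say that each came from a separate animal, so the p-values measure the spread between these samples.

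Rnmt stood at 95.5, 94.1 and 94.3 normalized CPM in the control total RNA libraries and at 29.3, 32.4 and 30.4 in those of cKO. In RPF it stood at 104, 87.9 and 98.9 in control and 10.5, 10.4 and 9.60 in cKO. The log2 fold change was -1.62 (SE 0.06, adjusted p = 5.8e-06) in total RNA and -3.24 (SE 0.10, adjusted p = 4.8e-06) in RPF, and no library went against its label. The T cell markers Cd3d, Cd3e, Cd3g, Cd4, Cd28 and Lck were all detected in every library. They summed to 2898, 2803 and 2679 normalized CPM in control total RNA and to 2060, 2092 and 2332 in cKO.

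Libraries differed in their content of other cells. The 3 B cell markers Ms4a1, Cd79a and Cd79b, none of which was at 0 in any library, summed to 5.20, 3.76 and 17.7 normalized CPM in control total RNA and to 46.6, 57.6 and 12.1 in cKO, with Ms4a1 the most abundant in 5 of these 6 libraries. In RPF they summed to 7.42, 6.78 and 22.9 in control and 79.8, 92.2 and 12.1 in cKO. Replicates 1 and 2 of cKO thus held the highest levels of these markers, and cKO replicate 3 held less than control replicate 3. In total RNA the 5 myeloid markers, of which 2 to 4 had any read in a library, summed to 0.99 to 2.38 normalized CPM, with Cd68 the most abundant, and Cd8a with Cd8b1 to 9.85 to 41.7. The 3 NK cell markers, of which 2 or 3 had any read in each total RNA library, summed to 0.27, 0.21 and 0.22 in control total RNA and 1.83, 1.39 and 1.08 in cKO, and to 0, 0.15 and 0.61 in control RPF and 1.64, 2.25 and 1.48 in cKO. These levels were low, with every cKO library above every control. Total RNA libraries of cKO also had more reads on no annotated gene, 8.21, 8.14 and 7.24% against 5.34, 5.63 and 5.997% in control, and fewer reads that aligned in several places, 25.1, 24.3 and 27.3% against 30.1, 29.3 and 28.7%. The part of these differences in the results that follow was not tested, except that the counts were repeated without cKO replicates 1 and 2. In bulk samples, fewer cells of a type and less RNA per cell cannot be told apart.

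The promoters of these genes were searched for the letters of 3 factors known to act on housekeeping and mitochondrial genes. RefSeq (GRCm38.p6) held a window from 250 bases before to 50 after the start for 68 of the 77 genes. The letters CCGGAAG, the core bound by ETS factors, occurred on either strand in 25 of 68 (36.8%), against 26 of 62 cytosolic ribosomal protein genes (41.9%) and 1853 of 8053 genes of the table (23.0%). The letters AAGATGG, the core of YY1, were in 13 of 68 (19.1%) against 9.09% of the table. The letters GCATGCGC, the core of the NRF1 element, were in 8 of 68 (11.8%) against 6.80%. None of the 3 motifs is contained in another. A start of C followed by 4 pyrimidines, the letters with which terminal oligopyrimidine (TOP) mRNAs begin, was found at the RefSeq start of 0 of 68 mitochondrial genes and 13 of 62 cytosolic genes (21.0%), against 2.91% of the table. RefSeq starts are approximate, and a match of letters is a description only. The 100 bases before the start, taken as the more upstream of those in RefSeq and GENCODE, are shown for those of the 16 genes with the largest total RNA changes in which a motif lay in that stretch, to set genes that fell beside genes that rose, with the motif in capitals:
Mrpl58: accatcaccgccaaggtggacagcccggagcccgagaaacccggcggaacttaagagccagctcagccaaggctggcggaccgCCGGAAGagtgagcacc
Mrpl52: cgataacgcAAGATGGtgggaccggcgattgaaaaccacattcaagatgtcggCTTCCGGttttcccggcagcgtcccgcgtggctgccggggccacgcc
Mrpl43: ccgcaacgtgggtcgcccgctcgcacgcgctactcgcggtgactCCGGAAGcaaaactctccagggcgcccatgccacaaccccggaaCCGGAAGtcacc
Mrpl9: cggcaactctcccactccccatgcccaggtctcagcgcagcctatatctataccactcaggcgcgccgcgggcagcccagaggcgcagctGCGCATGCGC
Each is written 5′ to 3′ along its gene. Mrpl58 is at chr11:115403652-115403751 on the plus strand and Mrpl52 at chr14:54426809-54426908 on the plus strand. Mrpl43 is at chr19:45006443-45006542 on the minus strand and Mrpl9 at chr3:94443218-94443317 on the plus strand. Mrpl58 and Mrpl52 fell in total RNA and carry the ETS letters, which Mrpl52 carries on the other strand, with the YY1 letters upstream of them, and Mrpl43 rose and carries them at 2 places. Mrpl9 rose and carries the NRF1 letters on both strands of a palindrome. Of the genes with a promoter, the ETS letters were in 5 of 12 that fell in total RNA, 6 of 23 that rose and 14 of 33 that were not called. The YY1 letters were in 1, 4 and 8 of these genes and the NRF1 letters in 1, 5 and 2. The pair Mrps11 and Mrpl46 was the only adjacent pair of members whose starts lay within 100 kb of each other, 412 bases apart on opposite strands of chromosome 7, and neither was called in any comparison.

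Before any comparison of genotypes, the genes spanned a wide range of levels. Per kilobase of exon, the median in control total RNA was 30.3 normalized CPM, against 10.4 for protein-coding genes tested in both kinds of library and 146 for cytosolic ribosomal protein genes. The highest were Mrpl33 at 148 ± 6.77 (SD, n = 3), Mrpl20 at 119 ± 5.48 and Mrpl18 at 101 ± 6.36, and the lowest were Mrps36 at 3.24 ± 0.44, Mrpl17 at 4.97 ± 0.28 and Mrpl23 at 6.08 ± 0.61. Per kilobase of coding sequence, the median in control RPF was 105, against 25.1 for protein-coding genes and 94.3 for cytosolic ones. Mrpl52 (510 ± 23.0), Mrpl20 (375 ± 9.72) and Mrps17 (341 ± 23.1) led, and Mrpl23 (3.77 ± 0.87), Mrps36 (7.87 ± 1.41) and Mrps33 (27.1 ± 0.86) came last. These extremes of the group lay far further apart than the spread of either over replicates. Mrps36, named for the small subunit, is now known as a component of the 2-oxoglutarate dehydrogenase complex, and it was the lowest Mrps gene in both kinds of library.

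RPF levels of these genes stood high relative to their total RNA. In control cells the median over the 77 genes of the log2 ratio of RPF to total RNA was 0.60, 0.59 and 0.67 in the 3 same-numbered library pairs, against 0.18, 0.17 and 0.18 over protein-coding genes. Of the 77 genes, 61 lay above the protein-coding median in control and 56 in cKO. The cytosolic ribosomal protein genes lay far below it, at -1.22, -1.46 and -1.23 in control and -0.53, -0.47 and -0.79 in cKO. The mitochondrial genes in cKO were at 0.69, 0.77 and 0.47, a range that includes the control values. Each kind of library is scaled to its own total, so these ratios are relative and not absolute rates.

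Relative to the RNA sequenced, more mitochondrial ribosomal protein genes rose than fell in cKO total RNA, and most of the differences were small. The authors report less mRNA per cell in activated cKO cells, and state that sequencing then understates falls and overstates rises of single genes. Whether the rises given here are rises per cell was not tested. In total RNA 14 of 77 decreased (18.2%) and 26 increased (33.8%), where 28.0% of all 11519 genes tested decreased and 26.3% increased. Their median log2 fold change was 0.033, against -0.0037 over all genes. In RPF 9 decreased (11.7%) and 13 increased (16.9%), where 15.7% of 11428 genes decreased and 14.1% increased, with a median of 0.091 against 0.0080. Of the cytosolic genes, 72 of 82 decreased and 1, Rpl7l1, increased in total RNA, with a median of -0.73. In RPF 3 cytosolic genes decreased and 4 increased, with a median of -0.065. Without cKO replicates 1 and 2, which leaves a single cKO library that is assumed to vary like the controls, 10 mitochondrial genes decreased and 25 increased in total RNA, while 0 decreased and 2 increased in RPF by edgeR (10 and 12 at an unadjusted p under 0.05). Calls over all genes dropped as well in that setting, to 20.8% decreased and 19.7% increased in total RNA and to 4.75% and 4.36% in RPF, and the median over the 77 genes was 0.16 in total RNA. Leaving out a single replicate gave 15 to 25 increases and 11 to 14 decreases in total RNA, and 6 to 11 increases and 7 to 9 decreases in RPF, with the fewest increases without control replicate 2 (15) and control replicate 1 (6). Over all genes, these fits called 20.2 to 27.9% as increased and 22.7 to 27.9% as decreased in total RNA, and 9.68 to 12.6% and 11.3 to 13.6% in RPF. The total RNA median ran from -0.0097, without cKO replicate 3, to 0.081. The RPF median ran from 0.046, without cKO replicate 2, to 0.094. It was lower still without cKO replicates 1 and 2 together, as given with the alternatives below. The RPF counts turned in order, to 6 increases and 7 decreases, without control replicate 1, and to 9 and 10 with no filter, and were 7 and 7 without control replicate 3, cKO replicate 1 or cKO replicate 3.

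**Figure D1:**
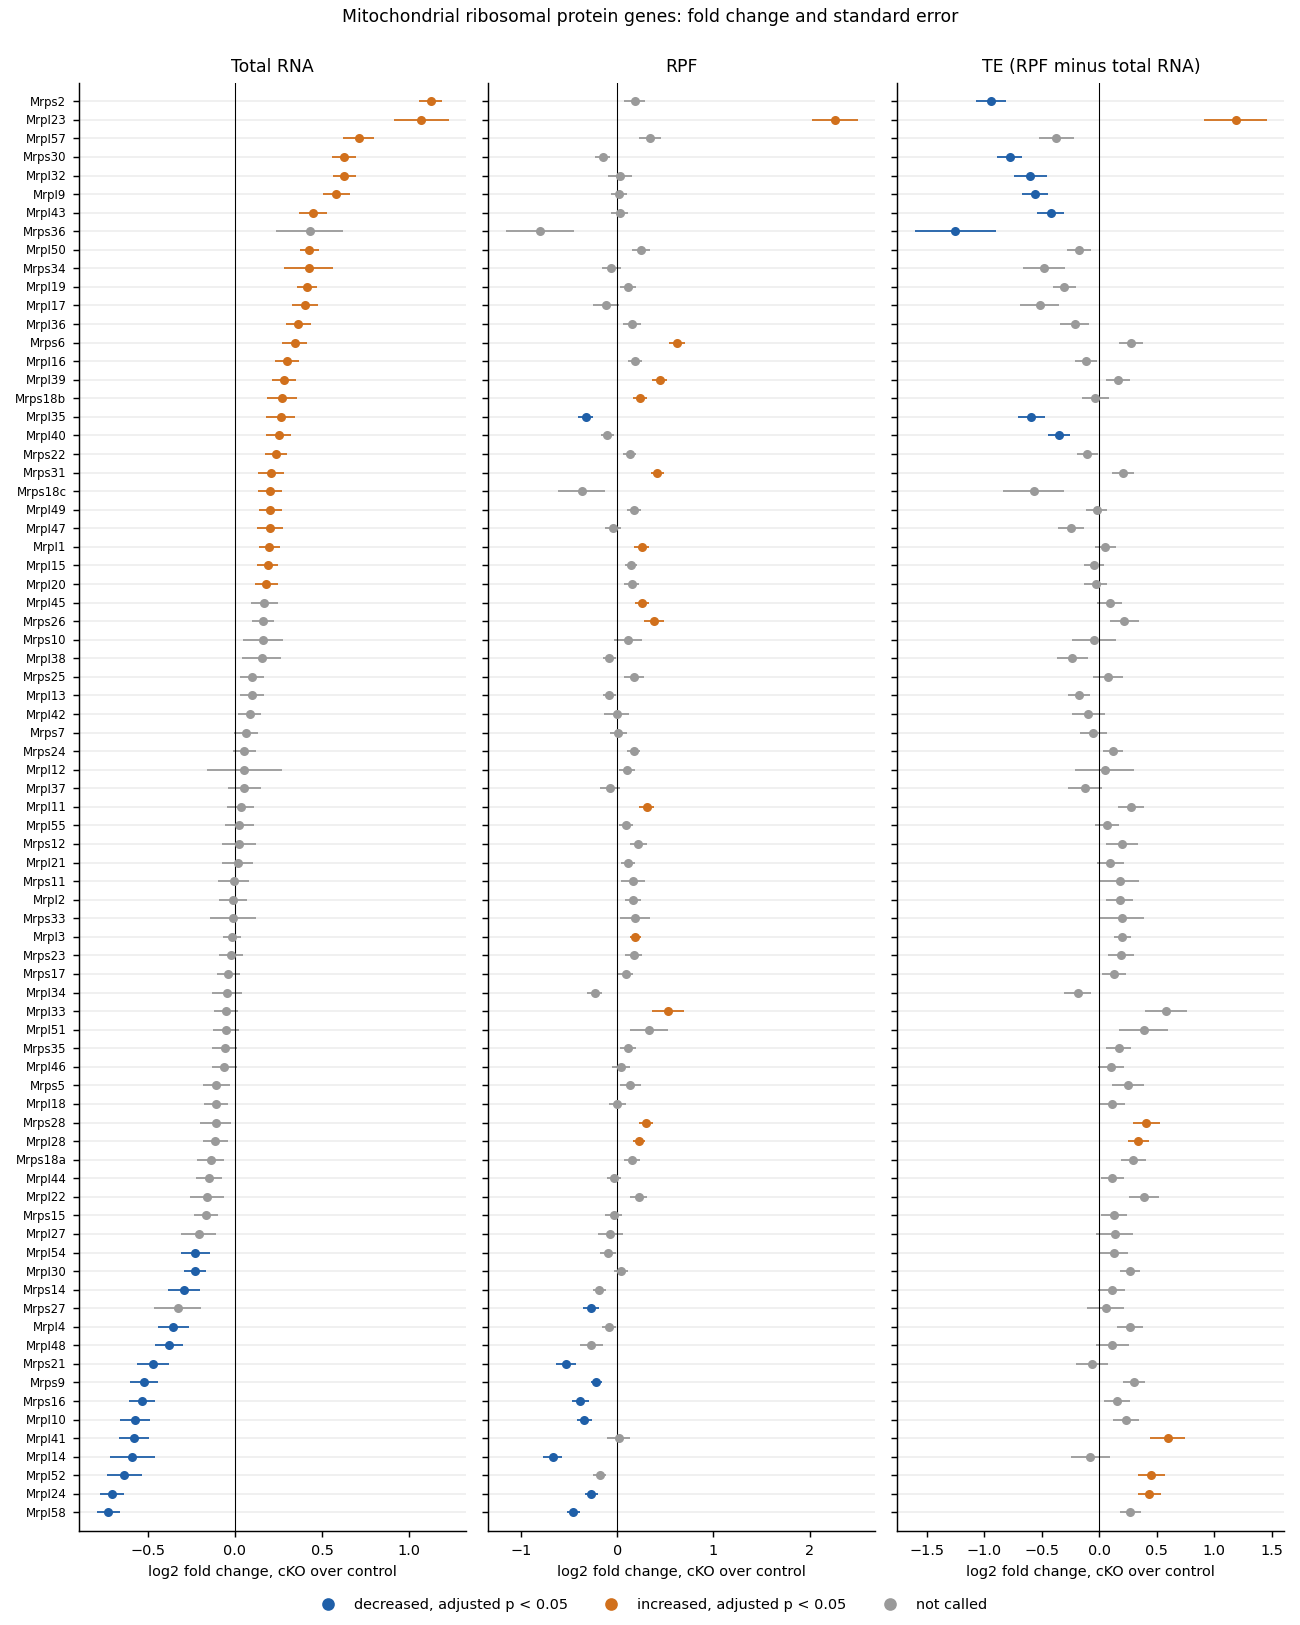
Log2 fold change of cKO over control (x axis) with its standard error for each of the 77 genes (y axis, ordered by the change in total RNA) in total RNA, RPF and TE, coloured by call. Total RNA changes run from -0.73 to 1.12, and the RPF and TE panels follow that order only in part.

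The 77 genes together held 0.601, 0.601 and 0.563% of the counts on protein-coding genes in control total RNA and 0.613, 0.573 and 0.639% in cKO, and the groups overlapped (exact permutation test, two-sided, p = 0.4). In RPF they held 0.710, 0.723 and 0.698% in control and 0.741, 0.755 and 0.738% in cKO. All 3 cKO libraries lay above all 3 controls in RPF, a log2 ratio of 0.068 (exact permutation test, two-sided, p = 0.1, the smallest that 3 against 3 samples allow). With all genes but mitochondrial rRNA as the denominator the groups overlapped (exact p = 0.2), cKO replicate 3 at 0.683% lying below control replicate 2 at 0.684%. The Mrps genes, grouped by name alone, held 0.244 ± 0.003% of RPF counts in control and 0.260 ± 0.003% in cKO (SD, n = 3), without overlap (exact p = 0.1). The Mrpl genes were at 0.466 ± 0.012% and 0.485 ± 0.007% (exact p = 0.2). The cytosolic genes held 4.06 ± 0.23% of control and 2.28 ± 0.15% of cKO total RNA, and 1.81 ± 0.06% and 1.81 ± 0.07% of RPF.

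Genes of either name were split between those that rose and those that fell in total RNA. Of the 48 Mrpl genes, 10 decreased and 18 increased, and of the 29 Mrps genes, 4 decreased and 8 increased. Large subunit proteins with a bacterial counterpart gave 5 decreased and 12 increased of 30, with a median of 0.029, and those found only in mitochondria gave 5 and 7 of 20, with a median of 0.069. Small subunit proteins with a bacterial counterpart gave 4 decreased and 3 increased of 16 (median -0.023), and those found only in mitochondria gave 0 (1 at an unadjusted p under 0.05) and 4 of 10 by edgeR (median 0.13). Over all genes 28.0% decreased and 26.3% increased, and the small size of these lists limits what their counts can show. The 3 cKO libraries lay above the 3 controls in total RNA for 28 of the 77 genes and below them for 16, and the groups overlapped for 33. Over all genes tested, 30.0% lay wholly above and 32.3% wholly below in this way. In RPF the cKO libraries lay above the controls for 23 members and below for 13, where 22.2% and 24.3% of all genes tested did so.

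Of the 8 largest falls in total RNA 6 were in Mrpl genes. Mrpl58 (chr11:115403752-115412674) encodes a peptidyl-tRNA hydrolase built into the large subunit, and it stood at 51.5, 51.0 and 50.3 normalized CPM in control and 31.9, 28.8 and 31.6 in cKO. Its log2 fold change was -0.73 (SE 0.07, adjusted p = 9.3e-05) in total RNA and -0.46 (SE 0.07, adjusted p = 0.0021) in RPF, where control libraries held 82.6, 89.4 and 87.5 and cKO libraries 62.7, 61.6 and 65.0. Both sets of libraries were separate. Mrpl14, a core protein at the face that meets the small subunit, was the largest called fall in RPF, from 93.9, 115 and 89.9 to 60.5, 65.1 and 61.3 (log2 fold change -0.67, SE 0.10). Its total RNA fell from 15.9, 14.8 and 18.2 to 12.4, 10.8 and 9.46 (-0.59, SE 0.13). Mrpl10, which anchors the stalk that contacts translation factors, fell by 0.57 in total RNA and by 0.34 in RPF on the log2 scale. Among small subunit genes, Mrps16, Mrps9 and Mrps21 fell in both, by 0.54, 0.52 and 0.47 in total RNA and by 0.38, 0.22 and 0.53 in RPF on the log2 scale. These 6 and Mrpl24 were the 7 genes called as decreased in both total RNA and RPF. The RPF call of Mrpl24 was lost in 3 of 12 alternatives, each with a single replicate left out. That of Mrps9 was lost by DESeq2 and without control replicate 1, control replicate 3 or cKO replicate 1. Mrpl48, Mrpl4, Mrps14, Mrpl30 and Mrpl54 made up the rest of the total RNA decreases together with Mrpl52 and Mrpl41, described below. Mrps27, a small subunit protein found only in mitochondria, fell in RPF from 105, 89.5 and 96.1 to 83.7, 79.3 and 78.0 (log2 fold change -0.27, SE 0.08, adjusted p = 0.032), a call lost in 8 of 12 alternatives, among them DESeq2 (adjusted p = 0.062) and each replicate left out but control replicate 2, and had a total RNA log2 fold change of -0.33 (adjusted p = 0.069).

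The genes that rose in both kinds of library were Mrpl1, Mrpl23, Mrpl39, Mrps6, Mrps18b and Mrps31. Mrps6, a small subunit protein with a bacterial counterpart, went from 86.6, 70.4 and 81.5 normalized CPM in control RPF to 123, 122 and 122 in cKO (log2 fold change 0.62, SE 0.08, adjusted p = 0.0013). Its total RNA rose by 0.34 (SE 0.07) without overlap. Mrps6 shares its strand and part of its span with the coding gene Slc5a3, as do Mrps24 with Urgcp and Mrps34 with Nme3. Reads that matched both genes of a pair were set aside as ambiguous, so the levels of these genes may miss reads. Mrpl39 and Mrps31 rose by 0.28 and 0.21 in total RNA and by 0.44 and 0.42 in RPF. Of the 3 Mrps18 paralogs, Mrps18b rose by 0.27 in total RNA and 0.24 in RPF, Mrps18c rose by 0.20 in total RNA and had an RPF log2 fold change of -0.37 (SE 0.24, adjusted p = 0.28), and Mrps18a, whose protein sits in the large subunit, had -0.14 (adjusted p = 0.15) and 0.16 (adjusted p = 0.19). Mrpl33, Mrps26, Mrpl11 and Mrps28 rose in RPF, by 0.53, 0.38, 0.31 and 0.30, and were not called in total RNA.

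Mrpl23 had the largest change in RPF. This large subunit protein lies at the exit of the nascent chain tunnel. It stood at 2.54, 1.66 and 1.84 normalized CPM in control RPF and 10.9, 9.28 and 9.35 in cKO, a log2 fold change of 2.26 (SE 0.24, adjusted p = 0.00045), and at 5.89, 6.46 and 5.28 in control total RNA and 11.7, 10.4 and 14.8 in cKO, a log2 fold change of 1.07 (SE 0.16, adjusted p = 0.00082). The groups were separate in both. The RPF levels rest on 27, 11 and 15 reads in control and 93, 95 and 38 in cKO, and it was the lowest of the 77 genes per kilobase of coding sequence in control RPF. A processed pseudogene of Mrpl23 is annotated with 260 reads over the 12 libraries, so the assignment of reads between the copies is uncertain.

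**Figure D2:**
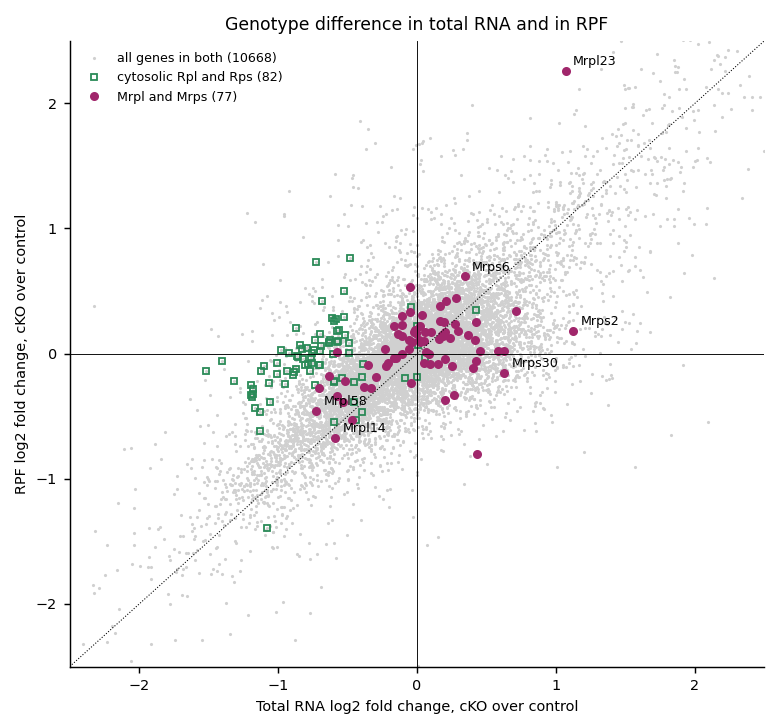
Log2 fold change of cKO over control in total RNA (x axis) and RPF (y axis) for 77 mitochondrial genes, 82 cytosolic ribosomal protein genes and all 10668 genes tested in both, with the dotted line at equality and genes beyond 2.5 in either direction not drawn. The mitochondrial genes lie around 0 in total RNA, whereas the cytosolic ones lie to the left with RPF values near 0.

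Calls in total RNA were often not met by a call in RPF. Of the 14 genes that decreased in total RNA 7 decreased in RPF, and of the 26 that increased 6 increased in RPF, 1 decreased and the rest were not called. Over all 10668 genes tested in both, 1371 were called as decreased in both, 1699 as decreased in total RNA alone, 1141 as increased in both and 1557 as increased in total RNA alone. TE was tested as the interaction of genotype and kind of library, that is the RPF log2 fold change less that in total RNA. In TE 8 of 77 decreased (10.4%) and 6 increased (7.79%), where 6.57% of 10668 genes decreased and 3.24% increased. Of the cytosolic genes, 46 of 82 increased in TE and 0 decreased by edgeR, nor at an unadjusted p under 0.05, and DESeq2 gave 51 and 0. The 3 largest total RNA falls among them were Rplp1 at -1.52, Rps20 at -1.41 and Rpsa at -1.32, with TE log2 fold changes of 1.37, 1.35 and 1.13.

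Of the 8 TE decreases 7 were of genes whose total RNA rose, and the RPF of 6 of these was not called. This was also the common pattern over all genes, where total RNA rose for 613 of 701 TE decreases (87.4%) and RPF was not called for 465 of the 613. The total RNA change enters TE with a minus sign, so opposite directions of total RNA and TE are in part built into the measure. Mrps2 (chr2:28468066-28471178), a core small subunit protein, had the largest total RNA rise of the group, from 29.9, 29.8 and 32.0 normalized CPM to 67.3, 68.3 and 64.2 (log2 fold change 1.12, SE 0.06, adjusted p = 1.4e-05). Its RPF stood at 42.0, 44.8 and 46.0 in control and 42.8, 56.4 and 51.2 in cKO, and the groups overlapped (0.18, SE 0.11, adjusted p = 0.25). Its TE log2 fold change was -0.94 (SE 0.13, adjusted p = 0.00053). Mrps30, which despite its name sits in the large subunit, went from 77.1, 86.9 and 77.1 to 123, 118 and 131 in total RNA and from 142, 119 and 136 to 121, 124 and 112 in RPF, with a TE log2 fold change of -0.78 (SE 0.11, adjusted p = 0.00059). Mrpl32, Mrpl9 and Mrpl43 showed the same order of values, with total RNA rises of 0.63, 0.58 and 0.45, RPF log2 fold changes of 0.025 (adjusted p = 0.90), 0.020 (adjusted p = 0.87) and 0.024 (adjusted p = 0.86), and TE falls of 0.60, 0.56 and 0.42 on the log2 scale. Not every large total RNA rise had this pattern. Mrpl57, the third largest and a large subunit protein found only in mitochondria, went from 43.5, 42.2 and 37.6 to 65.3, 62.2 and 74.2 in total RNA (0.71, SE 0.09, adjusted p = 0.00039) and from 52.3, 44.8 and 60.3 to 63.0, 64.3 and 73.1 in RPF (0.34, SE 0.12, adjusted p = 0.059). Its groups were separate in both kinds of library and its TE log2 fold change was -0.37 (adjusted p = 0.15). Mrpl50, of the same class, rose by 0.43 in total RNA, with 0.25 in RPF (adjusted p = 0.075) and -0.18 in TE (adjusted p = 0.34). Mrpl40, of that class too, rose by 0.25 in total RNA with a TE log2 fold change of -0.35, a call lost with a replicate block (adjusted p = 0.057).

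Mrpl35, a large subunit protein with a bacterial counterpart, was the only gene of the 77 called in opposite directions in total RNA and RPF. Its total RNA was 70.8, 66.8 and 66.8 normalized CPM in control and 78.1, 75.4 and 91.6 in cKO (log2 fold change 0.26, SE 0.08, adjusted p = 0.028). Its RPF was 116, 117 and 113 in control and 98.3, 82.8 and 95.0 in cKO (-0.33, SE 0.08, adjusted p = 0.015), and neither pair of groups overlapped. The TE log2 fold change was -0.59 (SE 0.12, adjusted p = 0.0064). Over all genes tested in both, 93 were called as increased in total RNA and decreased in RPF. Mrps36 had the lowest TE value, -1.25 (SE 0.35, adjusted p = 0.041), on 36 to 84 reads per total RNA library and 7 to 26 reads per RPF library, and this call too was lost with a replicate block (adjusted p = 0.066).

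In the other direction, Mrpl24, Mrpl52 and Mrpl41 decreased in total RNA and increased in TE, as did 245 of the 346 genes with a TE increase over all genes. Mrpl24, which sits near the tunnel exit, went from 113, 111 and 105 normalized CPM to 64.6, 64.1 and 72.7 in total RNA (log2 fold change -0.71, SE 0.07, adjusted p = 0.00012) and from 150, 154 and 148 to 136, 119 and 119 in RPF (-0.27, SE 0.07, adjusted p = 0.021). Its TE log2 fold change was 0.44 (SE 0.10, adjusted p = 0.014). Mrpl41, a large subunit protein found only in mitochondria, went from 44.7, 44.4 and 41.3 to 27.4, 27.5 and 32.3 in total RNA, while its RPF of 52.5, 40.2 and 45.8 overlapped with the 49.7, 48.6 and 41.3 of cKO. Its TE log2 fold change was 0.59 (SE 0.15, adjusted p = 0.024) and that of Mrpl52 was 0.45 (SE 0.12, adjusted p = 0.031). Mrpl28 and Mrps28 increased in TE by 0.34 and 0.41 with RPF rises and without a called total RNA change, and the Mrps28 call was lost with a replicate block (adjusted p = 0.056). Without cKO replicates 1 and 2, 5 of the 77 genes decreased in TE and 0 increased by edgeR (11 and 2 at an unadjusted p under 0.05), and leaving out a single replicate gave 4 to 7 decreases and 0 to 6 increases, with 0 increases without control replicate 2 (15 at an unadjusted p under 0.05). Over all genes TE calls came to 2.84% decreased and 0.78% increased in the former setting, and to between 3.94 and 7.73% decreased and 1.16 and 3.49% increased with single replicates left out. Of the 14 TE calls, those of Mrps2, Mrps30 and Mrpl35 held in all 12 alternatives run for single genes, those that leave out a replicate included. The others were lost in 1 (Mrpl9) to 9 (Mrps36) of the 12. Beyond those 9, Mrps36 was also without a call by DESeq2 and with at least 10 counts in every library. With 7 reads in RPF cKO replicate 3 it cannot pass the latter filter.

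**Figure D3:**
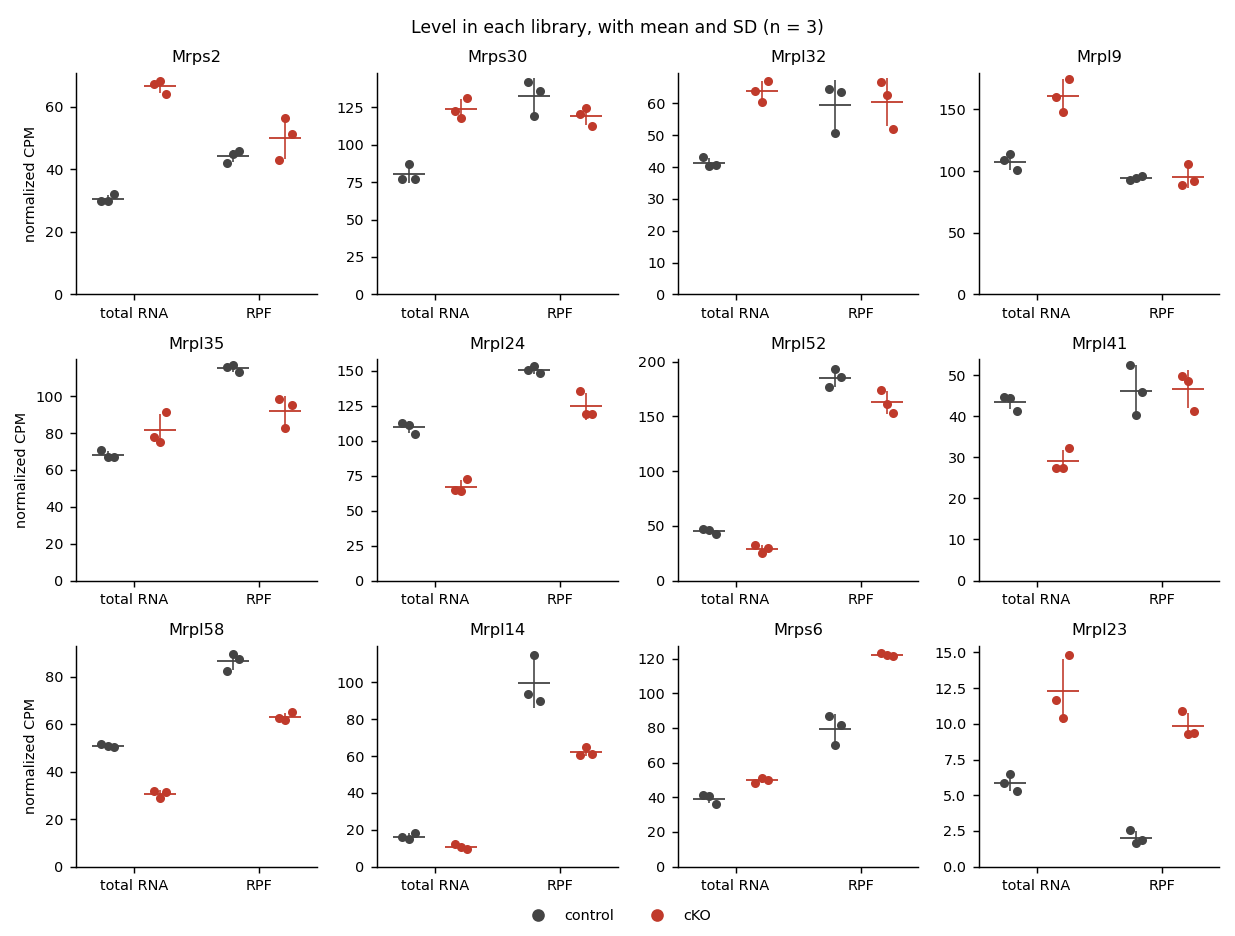
Level of 12 mitochondrial ribosomal protein genes in each total RNA and RPF library (y axis, normalized CPM, starting at 0; points, libraries; bars, mean and SD of 3). Mrps2, Mrps30, Mrpl32 and Mrpl9 are higher in cKO total RNA with overlapping RPF, whereas Mrpl58 and Mrpl14 are lower in cKO in both.

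The 28 genes called in none of the comparisons had total RNA log2 fold changes from -0.21 to 0.16 and RPF log2 fold changes from -0.23 to 0.33. They included the stalk protein Mrpl12 and the decoding site protein Mrps12, named here after their values were seen. Across the 77 genes the total RNA and RPF log2 fold changes had a Spearman rho of 0.38, against 0.70 across all 10668 genes and 0.41 across the 82 cytosolic genes. The SDs across genes were 0.36 in total RNA and 0.36 in RPF for the 77 genes, against 0.65 and 0.61 for all genes. A narrower spread can by itself lower rho, so these rho values are not directly comparable. They are descriptions across genes, which share libraries and are not independent replicates.

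Other parts of the mitochondrial translation system were compared by lists written from gene names. Of 5 mitoribosome proteins with other names, Ptcd3 rose from 157, 142 and 146 normalized CPM to 193, 206 and 210 in total RNA (log2 fold change 0.45, SE 0.06) and by 0.28 in RPF, Dap3 fell by 0.31 in total RNA on the log2 scale, and Gadd45gip1, Chchd1 and Aurkaip1 had 0.25, -0.046 and 0.062 and were not called. Of 15 translation factors and regulators tested, 6 decreased and 3 increased in total RNA (median -0.086), 0 decreased and 2 increased in RPF (3 and 3 at an unadjusted p under 0.05; DESeq2 gave 0 and 2), and 0 decreased and 3 increased in TE by edgeR (0 and 4 at an unadjusted p under 0.05; DESeq2 gave 0 and 3). Mtif2, the initiation factor, fell by 0.69 in total RNA on the log2 scale. Slirp, which binds mitochondrial mRNAs, and Oxa1l, which inserts new chains into the inner membrane, fell by 0.45 and 0.42 in total RNA and increased in TE by 0.45 and 0.48. Mtrf1l, a release factor, increased in RPF by 0.63 and in TE by 0.57. Of 24 assembly factors tested, 2 decreased and 11 increased in total RNA (median 0.15), 1 and 3 in RPF, and 3 and 1 in TE by edgeR. Noa1, a GTPase of small subunit assembly, went from 15.4, 15.1 and 24.2 to 44.6, 43.4 and 31.6 in total RNA (1.13, SE 0.21, adjusted p = 0.0024), with an RPF log2 fold change of 0.076 (adjusted p = 0.48) and a TE log2 fold change of -1.05. Over all genes, the share called as decreases was 28.0% for total RNA, 15.7% for RPF and 6.57% for TE, and the share called as increases was 26.3%, 14.1% and 3.24%.

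The mRNAs that this ribosome translates were measured only in part. Of 13 mitochondrially encoded mRNAs, 8 passed the filter, and mt-Co2, mt-Co3, mt-Atp6, mt-Atp8 and mt-Nd4l had 0 to 4 reads over all 12 libraries. In total RNA 1 of the 8 decreased, mt-Nd3, from 13.2, 14.2 and 6.41 normalized CPM to 4.82, 4.39 and 5.83 (log2 fold change -1.16, SE 0.29, adjusted p = 0.0099), and 0 increased by edgeR (0 at an unadjusted p under 0.05; 2 by DESeq2). In RPF 0 of the 8 was called by edgeR, nor at an unadjusted p under 0.05, and DESeq2 called 0. Cycloheximide arrests cytosolic and not mitochondrial ribosomes.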

How the data were processed

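Total cytoplasmic RNA and RPF of 3 control and 3 Rnmt cKO samples each were grouped by their labels, and 3 measures (total RNA, RPF, TE) were compared between genotypes. The authors kept read 2 alone, trimmed adapters with Cutadapt, removed reads of ribosomal and transfer RNA with Bowtie, aligned the rest to mm10 with STAR 2.5.2b and GENCODE vM12, and deposited counts per gene and library without normalization. Reads that aligned in several places were not counted (24.3 to 30.1% of reads in total RNA and 22.9 to 31.0% in RPF). The authors also deposited a table whose per-library signal equals the counts on the reverse strand divided by a single factor per library. It served here for the choice of genes and of the strand. Its log2 fold changes, p-values and adjusted p-values from the authors' own edgeR and RiboDiff comparisons were not used, and no column of a sample outside the 12 was present.

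Counts of the reverse strand were analysed with edgeR 4.0.16 in R 4.3.3. A gene was tested where 3 or more of 6 libraries had a CPM over 1 (in both kinds for TE), with TMM normalization within a kind, the quasi-likelihood test and Benjamini-Hochberg adjustment over all genes (threshold 0.05). All 77 genes passed in each comparison. TE was the interaction of genotype and kind of library over 12 libraries. Ratios of RPF to total RNA used a pseudocount of 1 normalized CPM. Same-numbered total RNA and RPF libraries of a genotype deviated together (correlations of 0.129 to 0.398 over 7668 genes), so these numbers were taken to pair libraries of a sample, a pairing found in the data and not stated by the labels. At this depth the median SE of a log2 fold change over the 77 genes was 0.075 (total RNA), 0.083 (RPF) or 0.12 (TE), which covers counting and the spread between libraries. Fold changes are relative to each library's sequenced RNA and leave out any change in mRNA per cell. Positions and lengths are from GENCODE vM21 (GRCm38) and promoters from RefSeq. Of the 77 genes, 35 overlap a gene on the opposite strand and 12 one on the same strand, 3 of them coding.

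In each comparison up to 8 of the largest called rises and falls were named, with the extremes of level, members called in both total RNA and another comparison, the Mrps18 paralogs, 5 mitoribosome genes with other names, up to 4 called genes of each reference list, and Rnmt; others were chosen after their values were seen. One further gene of the marker lists, beside those named, is not reported here. Lars2, a tRNA synthetase first listed among the assembly factors, was left out of that list after its values were seen (median 0.18 in total RNA with it, the same calls). The members, lists and tests were chosen with earlier results of these data known. Results were recomputed without TMM scaling, with DESeq2 1.42.0, no filter, at least 10 counts in every library, both strands, a replicate block, each replicate left out and another denominator for shares, and, chosen after the B cell markers were seen, cKO replicates 1 and 2 left out together. Scripts ran on Python 3.11.15 (scipy 1.17.1, numpy 2.4.6, pandas 2.3.3; plots with matplotlib 3.10.9).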

Additional observations from a re-analysis of the deposited data

Results flagged for a closer look

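For 14 of the 77 genes the genotype difference in RPF and the one in total RNA were unlike, as tested by the TE interaction, where 6.57% of all genes tested decreased and 3.24% increased in TE. The calls of Mrps36, Mrpl40 and Mrps28 were lost with the replicate block, by which total RNA and RPF libraries of a sample are paired (adjusted p = 0.066, 0.057 and 0.056). The RPF difference lay below the total RNA difference for Mrps36 (-1.25), Mrps2 (-0.94), Mrps30 (-0.78), Mrpl32 (-0.60), Mrpl35 (-0.59), Mrpl9 (-0.56), Mrpl43 (-0.42) and Mrpl40 (-0.35), given as log2 values. It lay above it for Mrpl28 (0.34), Mrps28 (0.41), Mrpl24 (0.44), Mrpl52 (0.45), Mrpl41 (0.59) and Mrpl23 (1.19). Groups of 3 samples were too small for a test of single outlying samples.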

How the results depend on the processing

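All 16 members named for total RNA kept their direction and call under each of 12 alternatives. So did 11 of 16 for RPF and 3 of 14 for TE (Mrps2, Mrps30 and Mrpl35). Under these 12, no named member changed sign where tested, and Mrps36 was not tested in TE with at least 10 counts in every library. The 12 do not include the setting that leaves out both cKO libraries rich in B cell markers. With a single cKO library left, that setting gave fewer RPF and TE calls, as described below. The RPF and TE calls counted here as kept were therefore not all kept in every setting run. The replicate block, which pairs control and cKO libraries by number in total RNA and RPF, left 15 of 26 increases in total RNA and 12 of 14 decreases. Same-numbered control and cKO libraries of total RNA had correlations of -0.578 to -0.242, so no pairing was seen there. The labels do not say whether a number marks a shared day or batch. Deviations of 3 libraries from their own mean depend on each other, so these correlations cannot exclude it. In RPF the block gave 9 decreases and 11 increases. In TE, where it pairs the kinds of library within a genotype, it gave 6 and 6. Over all genes the block called 23.9% as decreases and 21.3% as increases in total RNA, 14.3% and 14.0% in RPF and 7.28% and 3.99% in TE. With no filter the RPF median moved to 0.057 and the TE decreases to 5.

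Leaving out single replicates gave 11 to 14 decreases and 15 to 25 increases in total RNA, with medians of -0.0097 to 0.081. Fewer than 18 increases were left without control replicate 1 (17), 2 (15) or 3 (16). In RPF it gave 7 to 9 decreases and 6 to 11 increases, with medians of 0.046 (without cKO replicate 2) to 0.094. The increases fell to 6 without control replicate 1, to 7 without control replicate 3, cKO replicate 1 or cKO replicate 3, and to 8 without cKO replicate 2. In TE it gave 4 to 7 decreases and 0 to 6 increases by edgeR, with medians of 0.054 to 0.14. The decreases fell to 5 without control replicate 1, control replicate 2 or cKO replicate 3 and to 4 without control replicate 3 or cKO replicate 1. The increases fell to 0 without control replicate 2 (15 at an unadjusted p under 0.05), to 1 without cKO replicate 1 and to 2 without control replicate 1 or cKO replicate 2. Without cKO replicates 1 and 2 together, an alternative chosen after seeing the data, the medians were 0.16 (total RNA), 0.0028 (RPF) and -0.0096 (TE), with 0 decreases and 2 increases in RPF and 5 and 0 in TE. These alternatives leave fewer libraries, and beyond that the cause was not tested.

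Counts of members under the remaining alternatives stayed within 1.5 times those given above. In RPF, cKO replicate 3 held 4123271 reads on genes, and Mrps36 and Mrpl23 have the widest errors in TE. Counts of members that share a strand with another gene, and of cytosolic genes with near-identical copies, are uncertain. No result bears on protein levels.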
